A study of Homo sapiens with 3 samples.

Results

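The MYC, MAX and MXD network is a set of basic helix-loop-helix leucine zipper transcription factors, and 10 of its genes were followed here: MYC, MYCN, MYCL, MAX, MXD1, MXI1, MXD3, MXD4, MNT and MLX. They were found by matching the Ensembl identifiers of the count table to these gene symbols, and all 10 are among the 58037 genes of the table. The counts come from bulk RNA of RWPE1 cells, a line of normal human prostate epithelial cells immortalized with a human papillomavirus. There were 3 libraries, 1 each of genotype OLFM4-wild, OLFM4-knockout and OLFM4-active, where OLFM4 encodes the secreted glycoprotein olfactomedin 4. The study's methods describe OLFM4-wild and OLFM4-knockout reporter cells made by transfecting RWPE1 cells with CRISPR/Cas9 activation or paired-nickase knockout plasmids, the OLFM4-wild reporter cells thus also carrying plasmid, followed by sorting on green fluorescent protein. The reporter cells are described as stable lines selected with puromycin and elsewhere as clones, the methods give no separate account of the OLFM4-active line, and the labels name neither the clone nor the plasmid behind a library. The title of the OLFM4-wild library does not say whether its cells were reporter cells or RWPE1 cells without plasmid. An effect of transfection, selection or sorting on the comparisons with OLFM4-wild cannot be told apart from genotype and was not tested. With 1 library per condition no replicate error could be measured, so no p-value is given, each interval is a 95% interval for counting error only, and each difference compares libraries rather than conditions.

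MYC, MYCN and MYCL bind DNA only as partners of MAX, and the MYC-MAX dimer recruits histone acetyltransferases and other coactivators to genes that carry the E-box, CACGTG, near their start. The MXD proteins (MXD1, MXI1, MXD3 and MXD4) and MNT compete with MYC for MAX, bind the same E-box and recruit the SIN3 histone deacetylase complex, so that the network is often described as a balance of activator and repressor dimers on a shared partner. MLX is a second shared partner: it pairs with MXD1, MXD4 and MNT and with the glucose-responsive activators MLXIP (MondoA) and MLXIPL (ChREBP). In epithelia MYC is known for growth and ribosome production in dividing cells and MXD1 for cells that leave the cycle, and amplification of MYC is known in prostate cancer.

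The E-box was searched for in the RefSeq promoters of the network (GRCh38.p14, 250 bases before to 50 after each gene start), of which 9 of the 10 members have an entry, with no entry for MYC. Both strands were read, and CACGTG is its own reverse complement. MXD4, MNT and MLX hold a CACGTG, which is 3 of 9 promoters (33.3%), against 2030 of all 27305 promoters (7.43%) and 10.1% of the 11018 promoters of genes tested below. These 3 sites are shown because they place the network's own DNA motif beside its own genes, a repressor pair and the partner MLX, with the motif in capitals.
MXD4: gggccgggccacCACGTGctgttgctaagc
MNT: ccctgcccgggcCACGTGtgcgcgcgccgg
MLX: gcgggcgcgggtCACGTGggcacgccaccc
The MXD4 stretch is chr4:2262330-2262359 on the minus strand with the motif starting at position -238 from the gene start. That of MNT is chr17:2401236-2401265 on the minus strand with the motif at -193, and that of MLX is chr17:42567038-42567067 on the plus strand with the motif at -50. All 3 lie upstream of the annotated transcripts. The variant CACGCG, read on both strands, was found in the MXD3 promoter alone among the members (1 of 9, 11.1%), at position 8 after the start, against 11.4% of all promoters. In the windows of MYCN, MYCL, MAX, MXD1 and MXI1 neither set of letters was found. For MYCL, MAX and MXD1 the RefSeq start lies inside the longer GENCODE gene.

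The same letters were read in the promoters of further genes from the lists described further on. Shown are 3 genes that hold a site and lead, by their values in these data, the lists of MYC-induced genes and MLX partner targets. ODC1 and TXNIP hold CACGCG but no CACGTG. In the windows of NDUFAF4, also MYC-induced, and CDKN2B, which MYC is known to repress, neither set of letters was found. ODC1, which encodes ornithine decarboxylase, is a textbook MYC-induced gene, and TXNIP and ARRDC4 encode arrestin-family proteins that are textbook targets of MLX with MLXIP. Capitals mark CACGTG or CACGCG, or CGCGTG where CACGCG lies on the other strand.
ODC1: gggggcgggggcCACGCGtggggcaggcgg
TXNIP, site at -163: gcacaccgtgtcCACGCGccacagcgatct
TXNIP, site at -55: cgggccagcgctCGCGTGgctcttctggcc
ARRDC4, site at -210: aaacggcctgtgCACGTGcacgccggagcc
ARRDC4, site at -142: cctgcgcccaccCACGCGtgggagcgccaa
The stretches lie at chr2:10448519-10448548 on the minus strand for ODC1, chr1:145996725-145996754 and chr1:145996617-145996646 on the minus strand for TXNIP, and chr15:97960481-97960510 and chr15:97960549-97960578 on the plus strand for ARRDC4. The CACGCG of ODC1 and that of ARRDC4 overlap a CGCGTG shifted by a pair of bases. CACGTG was present in 20 of the 50 MYC-induced genes with a promoter entry (40.0%), and in 2 of the 3 MLX partner targets with one, against 10.1% of the promoters of genes tested below. CACGCG was present in 7 of these 50 (14.0%) and 2 of these 3, against 17.8% of the promoters of genes tested below.

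The libraries held 16309906 (OLFM4-wild), 58837147 (OLFM4-knockout) and 23224216 (labelled OLFM4-active) counted read pairs. Levels are given in CPM, counts scaled to library size with TMM factors, and comparisons as log2 fold changes of CPM after an offset of 0.5 counts. TMM scaling moved every gene by 0.35 on the log2 scale in OLFM4-knockout against OLFM4-wild relative to scaling by library totals, by 0.11 when the library labelled OLFM4-active was compared with OLFM4-wild, and by 0.24 between OLFM4-knockout and the library labelled OLFM4-active. The 16600 genes whose mean reached 1 CPM had medians of 0.10, 0.05 and 0.08 after TMM and -0.26, -0.07 and -0.16 with totals in these comparisons. The median in OLFM4-knockout against OLFM4-wild also went with gene length, from 0.29 in the tenth of genes with the fewest exon bases to -0.14 in the tenth with the most, while those of the library labelled OLFM4-active lay between 0.02 and 0.13. OLFM4 itself had 214 counts in OLFM4-wild, 131 in OLFM4-knockout and 16 in the library labelled OLFM4-active, which is 11.8, 2.55 and 0.670 CPM. Its log2 fold change was -2.20 (-2.53 to -1.89) in OLFM4-knockout and -4.10 (-4.97 to -3.40) in the library labelled OLFM4-active, so the level in the latter went against its label. All 4 basal epithelial markers were at 1 CPM or more, with a summed level of 16778, 37575 and 19775 CPM in the same order of libraries, and 3 of 5 luminal markers were, with 461, 424 and 306 CPM, while KLK3 had at most 3 counts in any library. Of the markers of other cells, 2 of 4 for fibroblasts (22.9 to 33.0 CPM in sum), 1 of 3 for leukocytes (19.8 to 31.4 CPM), 0 of 3 for endothelium and 0 of 2 for neuroendocrine cells reached 1 CPM, with COL3A1, PDGFRA, PTPRC, CD3E, PECAM1 and CDH5 at 3 counts or fewer. The summed basal markers were higher in OLFM4-knockout, but the sum was mostly KRT5 (12232, 27077 and 13686 CPM) and KRT14 (4006, 9666 and 5542 CPM). TP63 was near level at 414, 472 and 450 CPM, with a log2 fold change in OLFM4-knockout of 0.19, or -0.16 with library totals. KRT15, at 127, 359 and 97.2 CPM, was highest in OLFM4-knockout and lowest in the library labelled OLFM4-active. The part of these markers in the results below was not tested. In bulk RNA, fewer cells of a type and less RNA per cell cannot be told apart.

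MYC was the most abundant member in each library on the scale of CPM per kilobase of exon, at 44.9 in OLFM4-wild, 83.5 in OLFM4-knockout and 79.6 in the library labelled OLFM4-active. MXD3, the MXD protein made around S phase, came next at 25.6, 34.5 and 22.1 CPM per kilobase, and MLX followed at 8.42, 15.6 and 13.1. In OLFM4-wild the next 3, MXD1 (6.65), MAX (5.77) and MXI1 (5.58), had neighbouring intervals that overlapped, as did MYCL (4.60) and MXD4 (4.34), and MNT (2.62) stood below them. In OLFM4-knockout the order after MLX was MAX (7.75), then MXI1 (4.49) and MXD4 (4.34), whose intervals overlapped, MXD1 (3.64), MNT (2.14) and MYCL (1.51). In the library labelled OLFM4-active it was MAX (5.93), then MXD1 (4.96) and MXI1 (4.70), whose intervals overlapped, MNT (3.66), MXD4 (2.32) and MYCL (1.07). MYCN was at or near 0 in all 3. The same 3 genes thus led in each library, while MYCL, whose level in OLFM4-wild overlapped that of MXD4 and lay above MNT, was the lowest detected member in the other libraries. MYC made up 41.4% of the summed CPM per kilobase of the 10 genes in OLFM4-wild, 53.0% in OLFM4-knockout and 57.9% in the library labelled OLFM4-active, MXD3 made up 23.6%, 21.9% and 16.0%, and MYCL 4.24%, 0.958% and 0.779%. These levels rest on the summed exon length of each gene, not on the isoforms in use.

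**Figure D1:**
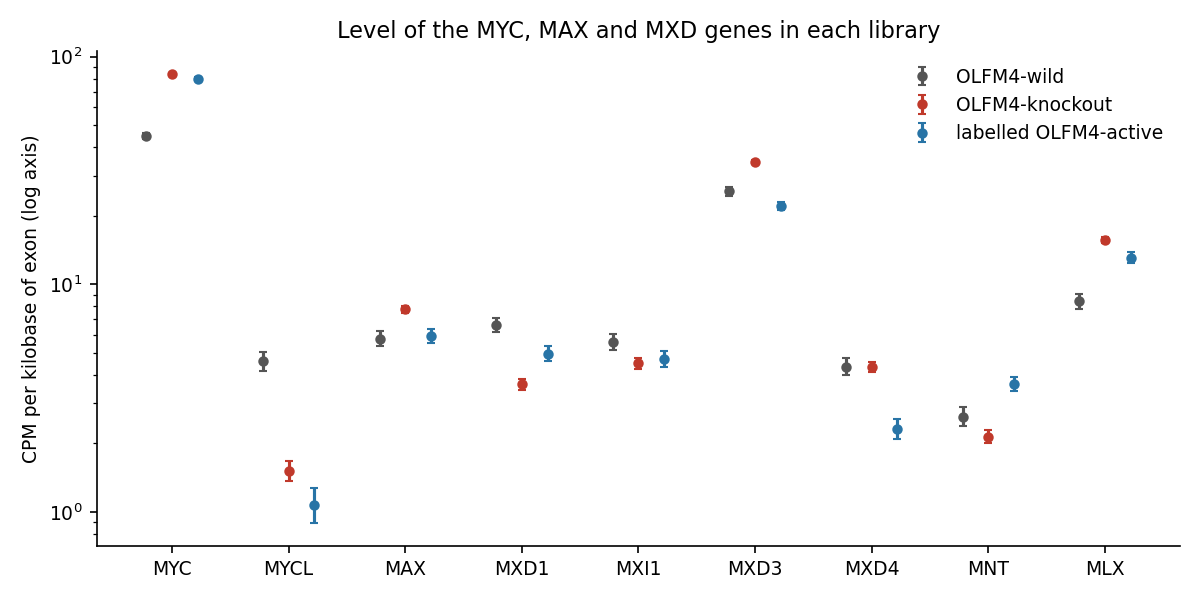
Level of the 9 network genes that passed the filter, in each library, in CPM per kilobase of exon on a log axis, with bars for the 95% counting intervals and 1 library per condition; MYCN is left out. MYC lies highest in each library and MYCL has the lowest level of the detected members in OLFM4-knockout (1.51) and in the library labelled OLFM4-active (1.07).

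MYC transcripts were higher in both other libraries than in OLFM4-wild. MYC (ENSG00000136997.15, chromosome 8, 127735434 to 127742951, plus strand, GRCh38) had 4982 counts (274 CPM) in OLFM4-wild, 26194 counts (510 CPM) in OLFM4-knockout and 11613 counts (486 CPM) in the library labelled OLFM4-active. The OLFM4-wild level was the low one, and the other libraries lay close together. The log2 fold change was 0.90 (0.85 to 0.94) in OLFM4-knockout, or 1.86-fold, and 0.83 (0.78 to 0.87) in the library labelled OLFM4-active, or 1.77-fold. Of the genes tested, 7.92% had a higher log2 fold change in the first of these comparisons and 6.11% in the second. The comparisons share the OLFM4-wild library. With library totals the values were 0.54 and 0.71, and relative to genes of like exon length the first was 0.81. Between OLFM4-knockout and the library labelled OLFM4-active the difference was 0.07 (0.04 to 0.10), and its sign depended on the scaling, with -0.17 by library totals. The opposite-strand gene CASC11 shares 194 exon bases with MYC and had 4, 21 and 0 counts.

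MYCL, a MYC paralog first described in lung cancer, went the other way. MYCL (chromosome 1, 39895428 to 39902256, minus strand) had 415 counts (22.8 CPM) in OLFM4-wild, 385 counts (7.50 CPM) in OLFM4-knockout and 127 counts (5.32 CPM) in the library labelled OLFM4-active. The OLFM4-wild level was the high one of the 3. It was 3.04-fold lower in OLFM4-knockout, a log2 fold change of -1.61 (-1.81 to -1.40), and 4.29-fold lower in the library labelled OLFM4-active, at -2.10 (-2.40 to -1.81). Of the genes tested, 97.2% and 98.6% had a higher log2 fold change in these comparisons, and the values with library totals were -1.96 and -2.21. MYCL has 2 annotated pseudogenes, MYCLP1 and MYCLP2, with which reads may be shared. MYCN (chromosome 2, 15940550 to 15947007, plus strand), the paralog of the nervous system, had 2 counts in OLFM4-wild and 0 in each of the other libraries. A count of 0 allows up to 0.0584 CPM in OLFM4-knockout and 0.126 CPM in the library labelled OLFM4-active, so no fold change is given. Summed per kilobase, the MYC family nonetheless stood at 49.5, 85.0 and 80.6 in OLFM4-wild, OLFM4-knockout and the library labelled OLFM4-active, since MYC is its main member.

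MAX, the partner of every MYC and MXD protein, differed less than MYC in both comparisons with OLFM4-wild. MAX (chromosome 14, 65006174 to 65102695, minus strand) had 656 counts (36.1 CPM) in OLFM4-wild, 2490 counts (48.5 CPM) in OLFM4-knockout and 886 counts (37.1 CPM) in the library labelled OLFM4-active. OLFM4-knockout held the highest level, and the other libraries could not be separated. The log2 fold change was 0.43 (0.30 to 0.55) in OLFM4-knockout and 0.07 with library totals. In the library labelled OLFM4-active it was 0.04 (-0.11 to 0.19), with a sign that turned with library totals (-0.08).

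Among the repressors no single direction was seen, and the 5 genes are taken in turn. MXD1 (chromosome 2, 69897688 to 69942945, plus strand), which is known from differentiating cells, had 767 counts (42.2 CPM) in OLFM4-wild, 1187 counts (23.1 CPM) in OLFM4-knockout and 753 counts (31.5 CPM) in the library labelled OLFM4-active. It was highest in OLFM4-wild and lowest in OLFM4-knockout, with log2 fold changes of -0.87 (-1.00 to -0.74) and, in the library labelled OLFM4-active, -0.42 (-0.57 to -0.27), or -1.22 and -0.54 with library totals. MXD1 shares 237 exon bases on the same strand with SNRNP27, so that reads there may not be assigned to either. MXI1 (chromosome 10, 110207605 to 110287365, plus strand), also called MXD2, had 599 counts (33.0 CPM), 1363 counts (26.6 CPM) and 664 counts (27.8 CPM) in OLFM4-wild, OLFM4-knockout and the library labelled OLFM4-active. It was lower than OLFM4-wild by a similar amount in both, at -0.31 (-0.45 to -0.17) and -0.25 (-0.41 to -0.08), both within 0.5, while with library totals the first was -0.67 and the second -0.36.

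MXD3 (chromosome 5, 177301461 to 177312757, minus strand) had 2204 counts (121 CPM) in OLFM4-wild, 8408 counts (164 CPM) in OLFM4-knockout and 2499 counts (105 CPM) in the library labelled OLFM4-active. OLFM4-knockout lay above OLFM4-wild at 0.43 (0.37 to 0.50), or 0.08 with library totals, and the library labelled OLFM4-active lay below it at -0.21 (-0.30 to -0.13). The difference between OLFM4-knockout and the library labelled OLFM4-active was 0.65 (0.58 to 0.71). MXD3 shares 926 exon bases on the same strand with RAB24, a small GTPase gene with 286, 681 and 246 counts in the 3 libraries, and its level is uncertain to that extent. The opposite-strand gene PRELID1 shares 1148 exon bases with MXD3 and had more counts than MXD3 in each library, at 2440, 11205 and 3637. Whether reads of PRELID1 entered the MXD3 counts was not tested. MXD4 (chromosome 4, 2247432 to 2262109, minus strand) had 542 counts (29.8 CPM) in OLFM4-wild, 1530 counts (29.8 CPM) in OLFM4-knockout and 381 counts (15.9 CPM) in the library labelled OLFM4-active. The library labelled OLFM4-active was low, at -0.90 (-1.10 to -0.71) against OLFM4-wild, while in OLFM4-knockout the log2 fold change was -0.00 (-0.14 to 0.14) and -0.35 with library totals. MNT (chromosome 17, 2384073 to 2401104, minus strand), the broadly expressed repressor of the network, had 415 counts (22.8 CPM) in OLFM4-wild, 958 counts (18.7 CPM) in OLFM4-knockout and 761 counts (31.9 CPM) in the library labelled OLFM4-active. Its order over the libraries was the reverse of that of MXD3, with -0.29 (-0.46 to -0.12) in OLFM4-knockout, 0.48 (0.31 to 0.66) in the library labelled OLFM4-active, and -0.77 (-0.91 to -0.63) between them, or -0.65, 0.36 and -1.01 with library totals. MXD1 and MXI1 were thus highest in OLFM4-wild, MXD3 in OLFM4-knockout and MNT in the library labelled OLFM4-active, and MXI1 alone of the 5 lay within 0.5 in all 3 comparisons, which did not hold with library totals. The 4 repressors other than MXD3 summed to 19.2 CPM per kilobase in OLFM4-wild, 14.6 in OLFM4-knockout and 15.6 in the library labelled OLFM4-active. With MXD3 the sums were 44.8, 49.2 and 37.7, so the sum in OLFM4-knockout lay above that in OLFM4-wild with MXD3 and below it without.

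MLX (chromosome 17, 42567072 to 42573239, plus strand) was higher in both libraries than in OLFM4-wild, as MYC was. It had 651 counts (35.8 CPM) in OLFM4-wild, 3414 counts (66.5 CPM) in OLFM4-knockout and 1336 counts (55.9 CPM) in the library labelled OLFM4-active. The log2 fold change was 0.89 (0.77 to 1.02) in OLFM4-knockout and 0.64 (0.51 to 0.78) in the library labelled OLFM4-active, or 0.54 and 0.53 with library totals. The opposite-strand gene PSMC3IP shares 775 exon bases with MLX, and MLX has 1 annotated pseudogene, MLXP1. Its activator partner MLXIP had 1220 counts (67.1 CPM), 2372 counts (46.2 CPM) and 2044 counts (85.5 CPM) in OLFM4-wild, OLFM4-knockout and the library labelled OLFM4-active, which put OLFM4-knockout lowest at -0.54 (-0.64 to -0.44) and the library labelled OLFM4-active highest at 0.35 (0.25 to 0.45). The other activator partner MLXIPL had only 12, 8 and 24 counts and did not pass the filter. MGA, a large MAX partner that carries a T-box as well, was close to level at 5015, 13404 and 6933 counts, with log2 fold changes of -0.08 (-0.13 to -0.03) and 0.07 (0.02 to 0.12).

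In OLFM4-knockout against OLFM4-wild, 2 of the 9 members tested, MYC and MLX, had a log2 fold change above 0.5, against 23.6% of all genes tested, and 2, MYCL and MXD1, had one below -0.5, against 18.6% of all genes. In the library labelled OLFM4-active, again compared with OLFM4-wild, 2 were above 0.5 (MYC and MLX), against 15.7% of all genes, and 2 below -0.5 (MYCL and MXD4), against 17.3%. Between OLFM4-knockout and the library labelled OLFM4-active, 2 were above 0.5 (MXD3 and MXD4), against 18.6%, and 1 below -0.5 (MNT), against 13.7%. These shares are near the background, so the number of members that differed is not a result about the network. The member medians of -0.00, -0.21 and 0.25 stand beside medians of 0.10, 0.05 and 0.08 for all genes. MYCN did not pass the filter of a mean of 1 CPM and is not in these counts.

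**Figure D2:**
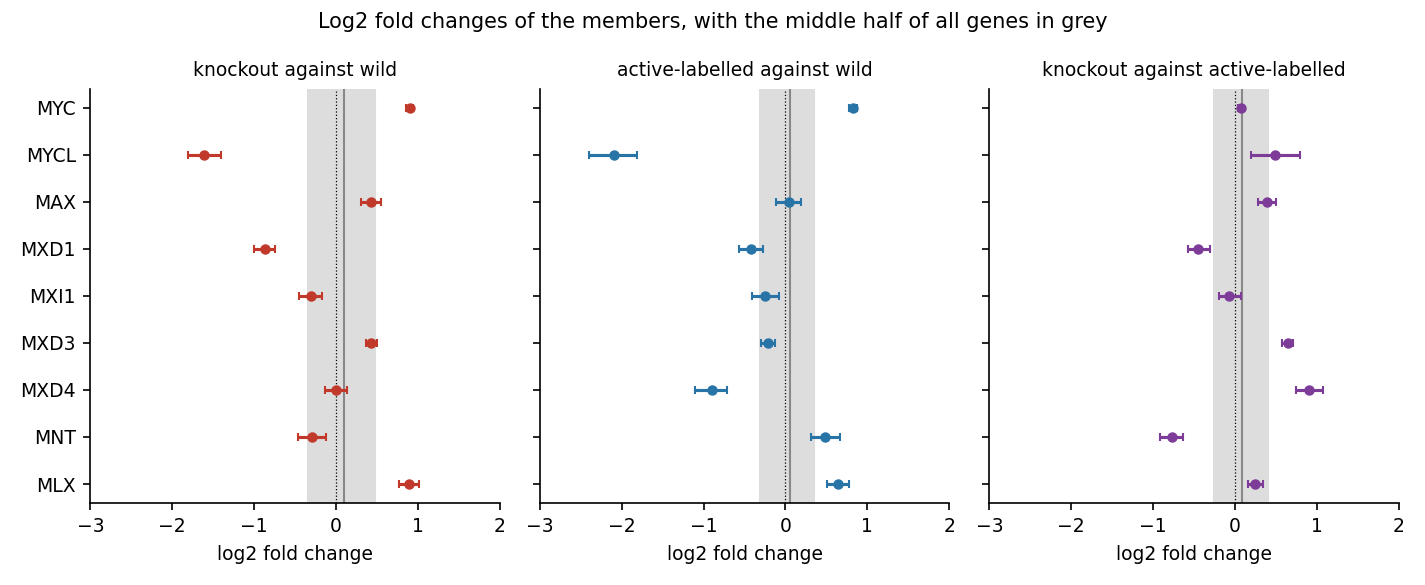
Log2 fold changes of the 9 tested members in OLFM4-knockout and in the library labelled OLFM4-active, each against the shared OLFM4-wild library, and of OLFM4-knockout relative to the library labelled OLFM4-active, with bars for 95% counting intervals, the line and grey band for the median and quartiles of all genes tested, and a dotted line at 0. Against OLFM4-wild, MYC (0.90 and 0.83) and MLX (0.89 and 0.64) lie above 0.5 in both, MYCL (-1.61 and -2.10) lies below -0.5 in both, and MXD3 and MNT have opposite signs in the 2 comparisons.

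The ratio of the counts of different genes within a library does not depend on how libraries are scaled. The RNA of activator and repressors was therefore also compared as MYC counts per 100 counts of each partner or competitor. These counts are not corrected for gene length, and the protein dimers were not measured in these libraries. Against MAX there were 759 (700 to 825) MYC counts per 100 in OLFM4-wild, 1052 (1010 to 1097) in OLFM4-knockout and 1311 (1224 to 1405) in the library labelled OLFM4-active. The log2 change of this ratio was 0.47 (0.34 to 0.60) in OLFM4-knockout and 0.79 (0.63 to 0.94) in the library labelled OLFM4-active. MYC thus stood higher relative to its partner in both than in OLFM4-wild. Against MXD1 the ratio went from 650 in OLFM4-wild to 2207 in OLFM4-knockout and 1542 in the library labelled OLFM4-active, log2 changes of 1.76 (1.63 to 1.90) and 1.25 (1.09 to 1.40). Against MXI1 it was 832, 1922 and 1749, against MXD3 226, 312 and 465, and against MXD4 919, 1712 and 3048, in the same order of libraries. Against MNT it was 1200, 2734 and 1526, with log2 changes of 1.19 (1.02 to 1.36) and 0.35 (0.17 to 0.53). The ratio to each of the 5 repressors was higher in both libraries than in OLFM4-wild, with every interval above 0. The repressor with the widest shift differed, MXD1 in OLFM4-knockout and MXD4 (1.73) in the library labelled OLFM4-active. These ratios share the MYC counts and so are not separate results.

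**Figure D3:**
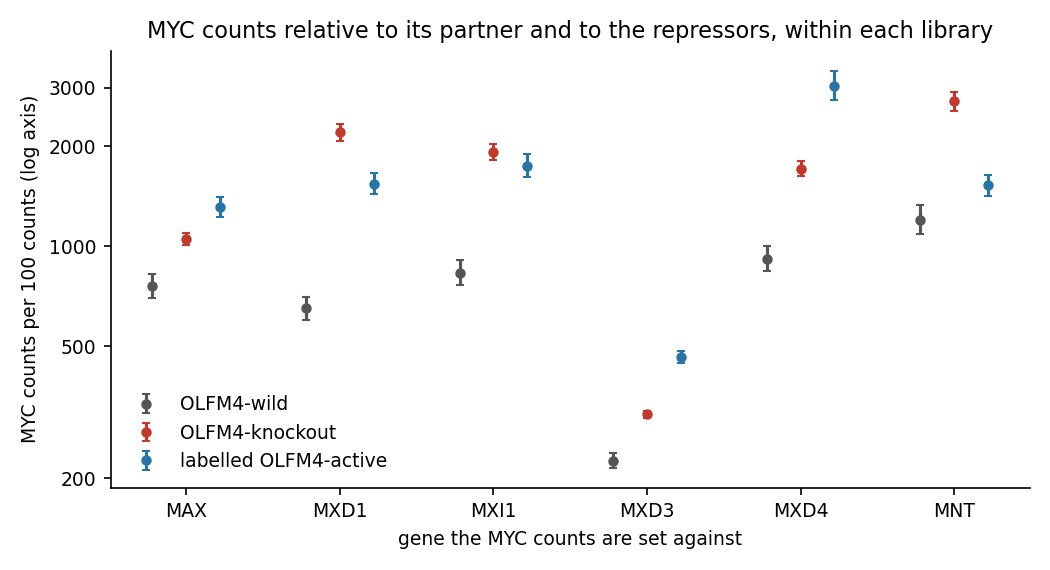
MYC counts per 100 counts of MAX or of each repressor within each library, on a log axis, with 95% counting intervals. The OLFM4-wild library has the lowest ratio for each of the 6 genes, and OLFM4-knockout is above the library labelled OLFM4-active for MXD1 and MNT and below it for MAX, MXD3 and MXD4, while for MXI1 their difference has an interval that reaches 0.

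The other members set against MAX gave the scaling-free view of each. MLX stood at 99.2 counts per 100 MAX counts in OLFM4-wild, 137 in OLFM4-knockout and 151 in the library labelled OLFM4-active. MXD3 per MAX was the same in OLFM4-wild (336) and OLFM4-knockout (338), a log2 change of 0.01 (-0.13 to 0.15), and lower at 282 in the library labelled OLFM4-active. MXD1 per 100 MAX was 117, 47.7 and 85.0, MXI1 91.3, 54.7 and 74.9, and MXD4 82.6, 61.4 and 43.0. All 3 of these were highest in OLFM4-wild, and MXD4 differs from MXD1 and MXI1 in being lowest in the library labelled OLFM4-active. MNT per 100 MAX was 63.3, 38.5 and 85.9, and MYCL was 63.3, 15.5 and 14.3. On length-corrected sums, the MYC family stood at 1.11 times the MXD proteins and MNT in OLFM4-wild, 1.73 times in OLFM4-knockout and 2.14 times in the library labelled OLFM4-active. Without MXD3 these ratios were 2.58, 5.82 and 5.15.

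Genes around the network were read from 8 lists, and these hold genes known as induced or repressed by MYC, targets of MLX partners, cofactors, and regulators of MYC protein and RNA. The lists were chosen with earlier results of these data known, so their counts are description only. Of 60 MYC-induced genes, 47 had a log2 fold change above 0.5 in OLFM4-knockout and 1 below -0.5, against 23.6% and 18.6% of all genes, with a median of 0.76 against 0.10 for all genes tested, and 35 above and 0 below in the library labelled OLFM4-active, against 15.7% and 17.3%, with a median of 0.56 against 0.05. In OLFM4-knockout 57 of the 60 lay above 0, or 51 with library totals, and in the library labelled OLFM4-active 52, or 49. Of all genes tested, about 56.8% lay above 0 in OLFM4-knockout and about 54.1% in the library labelled OLFM4-active. With library totals the medians of all genes were -0.26 and -0.07. ODC1, which makes the first polyamine, had 2617 counts (144 CPM) in OLFM4-wild, 73163 counts (1425 CPM) in OLFM4-knockout and 22403 counts (938 CPM) in the library labelled OLFM4-active. Its log2 fold changes of 3.31 (3.25 to 3.36) and 2.70 (2.64 to 2.76) were far wider than those of MYC itself. RRP12, a ribosome assembly factor, was at 1.59 (1.47 to 1.72) and 1.43 (1.30 to 1.56). The mitotic kinase PLK1 was the gene below -0.5, at -0.70 (-0.82 to -0.58), with PLK4, which starts centriole duplication, at -0.49 (-0.61 to -0.37).

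The 13 tested genes that MYC is known to repress were mixed. In OLFM4-knockout 2 were above 0.5 and 6 below -0.5, against 23.6% and 18.6% of all genes, with a median of -0.44 against 0.10. In the library labelled OLFM4-active 3 were above and 6 below, against 15.7% and 17.3%, with a median of -0.49 against 0.05. CDKN2B, an inhibitor of the cyclin D kinases, had 2710 counts (149 CPM) in OLFM4-wild, 1533 counts (29.9 CPM) in OLFM4-knockout and 587 counts (24.6 CPM) in the library labelled OLFM4-active. It was low in both, at -2.32 (-2.41 to -2.23) and -2.60 (-2.73 to -2.47), and the antiproliferative gene BTG2 was at -1.32 (-1.44 to -1.20) and -1.46 (-1.61 to -1.31). CDKN1C, another cyclin-dependent kinase inhibitor, stood apart from these with 274, 3611 and 322 counts. It was high in OLFM4-knockout alone, at 2.22 (2.04 to 2.40), and at -0.16 (-0.40 to 0.08) in the library labelled OLFM4-active. CEBPA, a differentiation factor, was at 1.28 (1.10 to 1.48) and 0.54 (0.32 to 0.76).

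Of the 4 tested targets of MLX with its Mondo partners, 2 (TXNIP and ARRDC4) were below -0.5 and 0 above 0.5 in each comparison with OLFM4-wild, where 18.6% and 17.3% of all genes were below, with medians of -0.77 in OLFM4-knockout and -1.21 in the library labelled OLFM4-active. TXNIP, the thioredoxin-binding brake on glucose uptake, had 17330 counts (954 CPM) in OLFM4-wild, 7301 counts (142 CPM) in OLFM4-knockout and 1396 counts (58.4 CPM) in the library labelled OLFM4-active. The log2 fold changes were -2.75 (-2.79 to -2.71) and -4.03 (-4.11 to -3.95). ARRDC4, its relative, went from 2493 counts (137 CPM) to 2624 counts (51.1 CPM) and 671 counts (28.1 CPM), at -1.42 (-1.50 to -1.34) and -2.29 (-2.41 to -2.16). For both genes OLFM4-wild was highest and the library labelled OLFM4-active lowest. The remaining pair lay within 0.5, KLF10 at -0.10 and -0.14 and PNPLA3 at -0.12 in both, while PKLR had 1, 1 and 2 counts and did not pass the filter. Per 100 MLX counts there were 2662 TXNIP counts in OLFM4-wild, 214 in OLFM4-knockout and 104 in the library labelled OLFM4-active, and 383, 76.9 and 50.2 ARRDC4 counts.

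**Figure D4:**
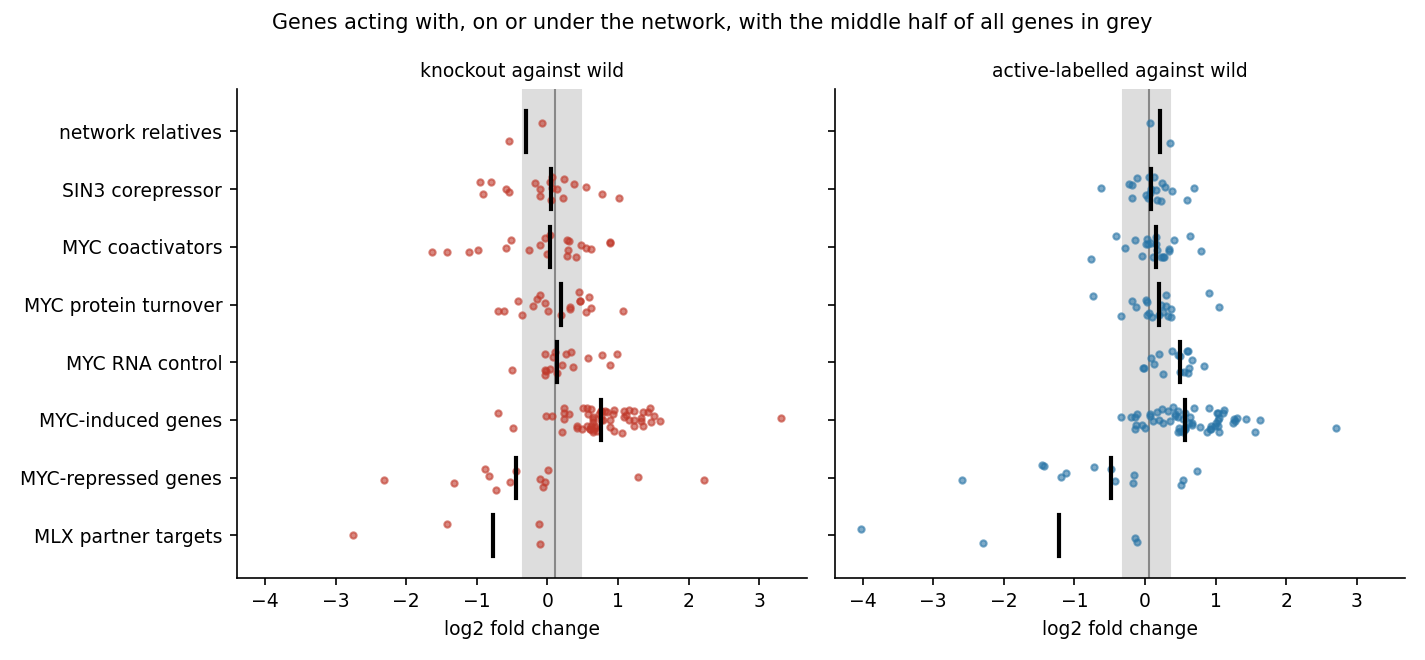
Log2 fold changes against OLFM4-wild for the genes of the 8 lists, 1 point per tested gene, with black bars for the list medians and the line and grey band for the median and quartiles of all genes tested, for OLFM4-knockout and for the library labelled OLFM4-active. MYC-induced genes centre at 0.76 and 0.56, and the MLX partner targets centre at -0.77 and -1.21 with KLF10 and PNPLA3 near 0.

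The cofactor lists had medians near those of all genes (0.10 in OLFM4-knockout and 0.05 in the library labelled OLFM4-active), and their counts stand beside shares of all genes of 23.6% above and 18.6% below in the former and 15.7% and 17.3% in the latter. Of the 19 genes of the SIN3 corepressor, which MXD proteins and MNT recruit, 3 were above 0.5 and 5 below -0.5 in OLFM4-knockout (median 0.05) and 2 above and 1 below in the library labelled OLFM4-active (median 0.08). BRMS1 was at 1.02 (0.90 to 1.13) and the deacetylase HDAC1 at 0.55 (0.48 to 0.63) in OLFM4-knockout, while ARID4A was at -0.95 (-1.16 to -0.75). Of the 21 MYC coactivators, 4 were above and 6 below in OLFM4-knockout (median 0.03) and 2 above and 1 below in the library labelled OLFM4-active (median 0.15). The acetyltransferase KAT2A, also called GCN5, was at 0.89 (0.72 to 1.07) and the helicase RUVBL2 at 0.88 (0.81 to 0.95) in OLFM4-knockout, and KAT2A shares 405 exon bases on its strand with another gene. EP300, a histone acetyltransferase, had 1620 counts (89.2 CPM) in OLFM4-wild, 1482 counts (28.9 CPM) in OLFM4-knockout and 1250 counts (52.3 CPM) in the library labelled OLFM4-active, at -1.63 (-1.73 to -1.52) and -0.77 (-0.88 to -0.66). EP300 is in the tenth of genes with the most exon bases, where the median in OLFM4-knockout was -0.14, and relative to genes of like length it was at -1.49.

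The regulators of MYC protein and RNA are set against the same all-gene shares, 23.6% above and 18.6% below in OLFM4-knockout and 15.7% and 17.3% in the library labelled OLFM4-active. Among 19 regulators of MYC protein turnover, 4 were above 0.5 and 2 below -0.5 in OLFM4-knockout (median 0.19) and 2 above and 1 below in the library labelled OLFM4-active (median 0.20). SET, an inhibitor of the phosphatase PP2A with 19 annotated pseudogenes, was at 0.55 (0.51 to 0.58) in OLFM4-knockout. PLK1, listed here too, and AURKA, a mitotic kinase that stabilises MYCN protein, were the genes below -0.5, AURKA at -0.61 (-0.68 to -0.54) and, in the library labelled OLFM4-active, -0.74 (-0.82 to -0.66). FBXW7, the ubiquitin ligase adaptor that marks MYC for breakdown, was at 0.01 (-0.11 to 0.13) and -0.18 (-0.32 to -0.04) and is named outside the naming rule, with its values seen. Of 17 tested genes that act on MYC transcription or RNA, 4 were above and 0 below in OLFM4-knockout (median 0.13), and 7 above and 0 below in the library labelled OLFM4-active (median 0.49). PUF60, which binds upstream of MYC with FUBP1, was at 0.98 (0.91 to 1.06) and 0.38 (0.29 to 0.47), and the helicase DHX9 at 0.89 (0.83 to 0.95) and 0.67 (0.60 to 0.73). HNRNPD, also called AUF1, an AU-rich element binding protein, was at -0.50 (-0.57 to -0.42) and 0.62 (0.54 to 0.70), and IGF2BP2, which binds and stabilises target RNA, at -0.04 (-0.13 to 0.06) and 0.59 (0.50 to 0.69).

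The levels of genes near MYC were compared with MYC itself. The nearest tested gene is PVT1, a long non-coding RNA gene that starts 0.06 Mb after MYC, and it is named with its values seen. PVT1 had 357 counts (19.6 CPM) in OLFM4-wild, 1070 counts (20.8 CPM) in OLFM4-knockout and 464 counts (19.4 CPM) in the library labelled OLFM4-active, and the 3 levels could not be separated, at 0.08 (-0.09 to 0.26) and -0.02 (-0.22 to 0.19). MYC counts per 100 PVT1 counts went from 1396 to 2448 and 2503, log2 changes of 0.81 (0.63 to 0.99) and 0.84 (0.64 to 1.05). The 41 tested genes within 5 Mb of MYC had median log2 fold changes of 0.36 in OLFM4-knockout and 0.34 in the library labelled OLFM4-active, against 0.16 and 0.12 for the whole chromosome, and 14 and 15 of them were above 0.5, where 23.6% and 15.7% of all genes tested were. Within 1 Mb the medians of 7 genes were 0.08 and 0.16. FAM83A, at 1.74 and 1.33, and TRIB1, at 1.40 and 1.28, were protein-coding genes of the window above MYC in both and are also named with their values seen. The DNA copy number of the region in these lines was not measured.

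**Figure D5:**
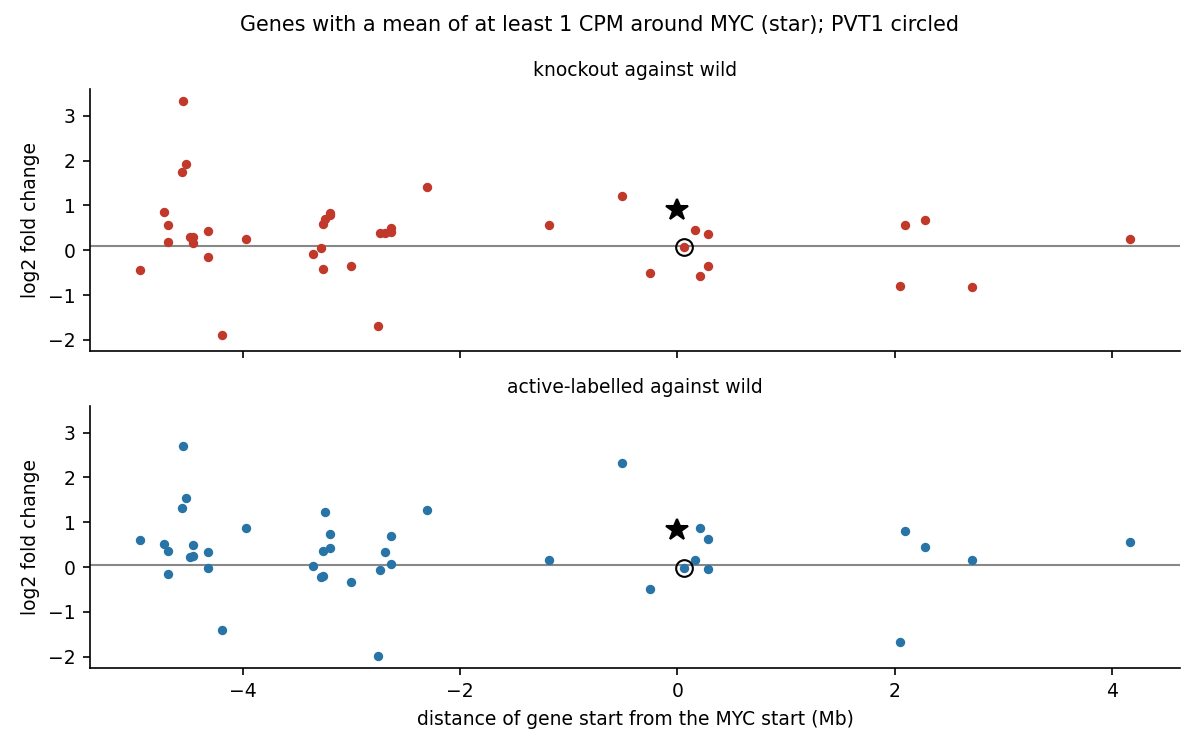
Log2 fold changes against OLFM4-wild of the 41 tested genes within 5 Mb of MYC, by distance from the MYC start in Mb, for OLFM4-knockout and the library labelled OLFM4-active, with MYC as a star, PVT1 circled and a line at the median of all genes tested. MYC stands at 0.90 and 0.83, and PVT1 beside it at 0.08 and -0.02.

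Other genes shared the pattern of MYC over the 3 libraries. Of 9661 protein-coding genes whose mean reached 10 CPM, 782 were above 0.5 in both comparisons with OLFM4-wild, and 49 lay within 0.1 of the pair of MYC values by Euclidean distance. The nearest were FASTKD2, a mitochondrial RNA-binding protein (distance 0.018, at 0.91 and 0.84), ANKRD46 (0.019, at 0.90 and 0.84), SCHIP1 (0.031, at 0.88 and 0.80), the imprinted gene PHLDA2 (0.034, at 0.86 and 0.82) and the methyltransferase SMYD3 (0.035, at 0.87 and 0.80). SCHIP1 shares 1642 exon bases with IQCJ-SCHIP1 and is uncertain. So is ANKRD46, which shares 846 exon bases on the same strand with the pseudogene GAPDHP62. With 3 libraries this likeness rests on 2 differences per gene.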

How the data were processed

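Total RNA of RWPE1 cells was sequenced as 3 TruSeq Stranded Total RNA (Ribo-Zero) libraries. The authors trimmed reads with cutadapt, aligned them with HISAT2 to GRCh38 and assigned uniquely mapped read pairs to genes on the reverse strand with featureCounts. The deposited values are raw counts, not normalized. Genes were matched to GENCODE 44 for positions and exon lengths, and 45 entries of the Y pseudoautosomal regions, with 0 counts in all, were left out.

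Libraries were scaled with TMM (edgeR 4.0.16, R 4.3.3) and log2 CPM taken as in voom (limma 3.58.1), with Python 3.11.15, numpy 2.4.6, pandas 2.3.3, scipy 1.17.1 and matplotlib 3.10.9 for the rest. Genes needed a mean of 1 CPM, and differences were counted past 0.5. Intervals (95%) were conditional Clopper-Pearson intervals, or for ratios exact odds-ratio intervals. A count of 0 was taken to allow 3 counts. Scripts were tested on simulated data. The 10 members, the lists and the markers were chosen with earlier results of these data known. Named by rule were the members, OLFM4, the network relatives and the 5 nearest to MYC. From each list the rule took the 2 highest and 2 lowest in OLFM4-knockout with a mean of 10 CPM. Outside this rule FBXW7, PVT1, FAM83A and TRIB1 are marked where they are named. NDUFAF4, PNPLA3 and PKLR are outside it too, and marker genes and genes overlapping a named gene are also given. Some results under this rule are not reported here. Library totals, DESeq2 1.42.0 size factors, upper quartile factors, an offset of 5 counts, equal depth, a filter of 1 count in either library, a threshold of 1 log2 unit, a minimum of 10 CPM, a window of 1 Mb, and like exon length were the alternatives, the last chosen after seeing the data.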

Additional observations from a re-analysis of the deposited data

Results flagged for a closer look

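For MXD3 and MNT, OLFM4-knockout and the library labelled OLFM4-active lay on opposite sides of OLFM4-wild. MXD3 was at 0.43 in OLFM4-knockout and -0.21 in the library labelled OLFM4-active, a difference of 0.65 on the log2 scale, and the first value was 0.08 with library totals. MNT was at -0.29 and 0.48, a difference of -0.77. With 1 library per condition neither difference was tested.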

How the results depend on the processing

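No paired analysis was possible because each condition has 1 library, and for the same reason no library could be left out. Of the 27 member values (9 genes in 3 comparisons), all 27 kept within their counting intervals with DESeq2 size factors and with an offset of 5 counts, 24 at equal depth, 22 with upper quartile factors, 20 relative to genes of like exon length and 8 with library totals. The sign of MAX in the library labelled OLFM4-active (0.04) became -0.08 with totals and -0.01 at like length, and that of MYC between OLFM4-knockout and the library labelled OLFM4-active (0.07) became -0.17 with totals and -0.03 with upper quartile factors. With totals, 4 members (MYCL, MXD1, MXI1 and MNT) were below -0.5 in OLFM4-knockout against OLFM4-wild, and 1 was above 0.5 and 2 below -0.5 between OLFM4-knockout and the library labelled OLFM4-active. With upper quartile factors 2 were below in the latter. DESeq2 factors put MNT above 0.5 in the library labelled OLFM4-active, 3 members in place of 2. With a filter of 1 count in either library, MYCN (2 counts in OLFM4-wild and 0 in the others) enters and 3 members were below -0.5 in each comparison with OLFM4-wild. At a threshold of 1 log2 unit, 0 members were above and 1 below in each comparison with OLFM4-wild, and 0 and 0 between the other libraries. Of the list medians taken relative to all genes, those at like exon length that moved were, in OLFM4-knockout against OLFM4-wild, -0.17 for the network relatives and 0.19 for MYC RNA control, and, against the library labelled OLFM4-active, -0.34 for the network relatives, -0.07 for MYC protein turnover and -0.18 for MYC RNA control. Those at a minimum of 10 CPM that moved were, in OLFM4-knockout against OLFM4-wild, -0.16 for MYC protein turnover and -1.60 for the MLX partner targets. In the library labelled OLFM4-active, relative to OLFM4-wild, they were -0.83 for MYC-repressed genes and -2.39 for the MLX partner targets, and between OLFM4-knockout and the library labelled OLFM4-active -0.20 for the SIN3 corepressor and 0.77 for the MLX partner targets. With a minimum of 10 CPM fewer genes of these lists are tested, and the cause of the other moves was not tested. Depth limits MYCN. The intervals of MAX (0.43) in OLFM4-knockout, MNT (0.48) in the library labelled OLFM4-active and MYCL (0.49) between these libraries reach past 0.5. Those of MXD1 in the library labelled OLFM4-active (-0.42) and between these libraries (-0.45) reach past -0.5.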
